A study of Mus musculus with 8 samples.

Results

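The Id inhibitors and the E proteins are 7 mouse genes, Id1, Id2, Id3, Id4, Tcf3, Tcf4 and Tcf12, taken by symbol from the 27179 genes of an RNA-seq table and from 4 lists of m6A peaks. All 7 had an entry in the table, 6 of them passed the filter on low values, and 6 had at least 1 peak. The cells were C2C12, an immortalised mouse myoblast line that proliferates in rich serum and forms myotubes once serum is lowered. Growth medium (GM) cultures held 10% fetal bovine serum and were taken at 50% confluence, and differentiation (3d DM) cultures were kept for 3 days in 2% horse serum after passing 90% confluence. Each state had 2 input RNA-seq libraries and 2 MeRIP-seq libraries, in which RNA fragments carrying N6-methyladenosine (m6A) were immunoprecipitated (IP). All cells were of this 1 line and carried no other treatment, and no source says whether the replicates were separate cultures, so p-values measure only the spread between these libraries.

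E proteins are basic helix-loop-helix transcription factors that pair with tissue-specific partners such as MyoD and bind E-boxes in muscle genes. Id proteins have the helix-loop-helix but no basic region, so an E protein held by an Id protein cannot bind DNA. In myoblasts, Id genes are known as targets of serum and BMP signalling and as brakes on differentiation. m6A is a methyl mark on adenosines of mRNA, placed mostly near stop codons and in 3′ untranslated regions (3′UTRs).

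The labelled cell type and states showed their markers. Myod1, Des and Cdh15, a muscle cadherin, had normalized values of at least 1016.2, 5944.9 and 2675.4 in all 4 input libraries. The 4 genes of dividing cells (Mki67, Top2a, Ccnb1, Cdk1) fell together, with summed values of 11296.9 and 12708.6 in GM against 1224.0 and 2361.5 in 3d DM. Myog, the bHLH factor of differentiating myoblasts, was at 1007.8 in GM replicate 1 and 220.8 in GM replicate 2, against 5392.0 and 11502.3 in 3d DM, so the GM libraries were not alike in this gene. None of the immune, endothelial, adipocyte, chondrocyte and osteoblast or epithelial markers was high enough to be tested, and the summed values of those lists were between 0.0 and 31.8. Of the neural and Schwann markers only Tubb3, a tubulin, was tested, with 1333.9 and 1785.3 in GM against 485.9 and 778.0 in 3d DM, and Sox10 was at most 2.3. In these bulk libraries fewer cells of a kind and less RNA per cell cannot be told apart.

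All 3 Id genes that could be tested fell from GM to 3d DM, and Id3 fell most. Values here are the authors' normalized signal, and changes are log2 fold changes of 3d DM minus GM of value + 1 with the limma test, adjusted by the Benjamini-Hochberg method over 11406 genes. Over these genes 9.96% were called lower in 3d DM, 7.01% higher and 17.0% in either direction at an adjusted p under 0.05. Of the 6 tested members 4 were lower and 0 higher. The median of the 3 tested Id genes was -1.68 and that of the 3 E proteins -0.34, beside -0.224 over all tested genes.

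Id3 (Entrez 15903, chr4:136143497-136145755 of mm10, plus strand) was at 572.6 and 1262.4 in the GM libraries and at 31.8 and 79.2 in the 3d DM libraries. The lower GM library was 7.23 times the higher 3d DM library, so the states were far apart although each pair differed by more than 2 times within itself (ratios of 2.21 in GM and 2.49 in 3d DM). The log2 fold change was -4.05 (SE 0.47, adjusted p = 9.45e-16). Without 3d DM replicate 1 the change was -3.41 and the adjusted p 0.0524. Its 3 exons give a transcript of 1278 bases with a short coding sequence of 360 bases.

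Id2 (Entrez 15902, chr12:25093799-25097140, minus strand) was at 470.8 and 657.3 in GM and at 138.7 and 214.8 in 3d DM. These groups did not overlap, and the log2 fold change was -1.68 (SE 0.46, adjusted p = 0.00247). The change was smallest, at -1.37, without 3d DM replicate 1. The call rested on all 4 libraries, since the adjusted p was 0.0629 without GM replicate 1, 0.309 without GM replicate 2, 0.15 without 3d DM replicate 1 and 0.0537 without 3d DM replicate 2.

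Id1 (Entrez 15901, chr2:152736251-152737410, plus strand) was at 291.9 and 641.2 in GM and at 99.5 and 204.9 in 3d DM. GM replicate 1 was the nearest to the 3d DM libraries, 1.43 times the higher of them. The log2 fold change was -1.59 (SE 0.47, adjusted p = 0.0057). The change was -1.03 without GM replicate 2 (adjusted p = 0.635), -1.08 without 3d DM replicate 1 (0.4) and -2.11 without 3d DM replicate 2 (0.0923). It was 0.0854 after rescaling the libraries by median-of-ratios factors, which moved the median of all genes from -0.224 to -0.028 and the change of Id1 to -1.40.

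Id4 (Entrez 15904, chr13:48261228-48266026, plus strand) was near the bottom of the table, with 3.2 and 1.0 in GM against 0.1 and 2.3 in 3d DM. All 4 values were below 25.1, the value at 2 cpm of a column's total, and the gene was not tested. The libraries of both states overlapped.

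Standard errors of the members came from a trend over all genes with the same level, because the prior degrees of freedom of the fit were infinite. The replicate SD of the gene itself on the log2 scale was 0.77 for Id1 and 0.86 for Id3, against the 0.47 that the test used for both, so the spread of these genes was larger than the test assumed. For Id2 it was 0.40 against 0.46, for Tcf3 0.46 against 0.43, for Tcf4 0.64 against 0.43 and for Tcf12 0.34 against 0.43. Other genes named below differed in both directions. The SD was 1.22 against 0.42 for Myog, 1.65 against 0.52 for Chrd, 1.03 against 0.41 for Myh3 and 0.91 against 0.42 for Tnni1. Their SE and adjusted p thus rest on less spread than their own. It was 0.32 against 0.62 for Msc, 0.33 against 0.43 for Bhlhe40 and 0.37 against 0.44 for Usp1.

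**Figure D1:**
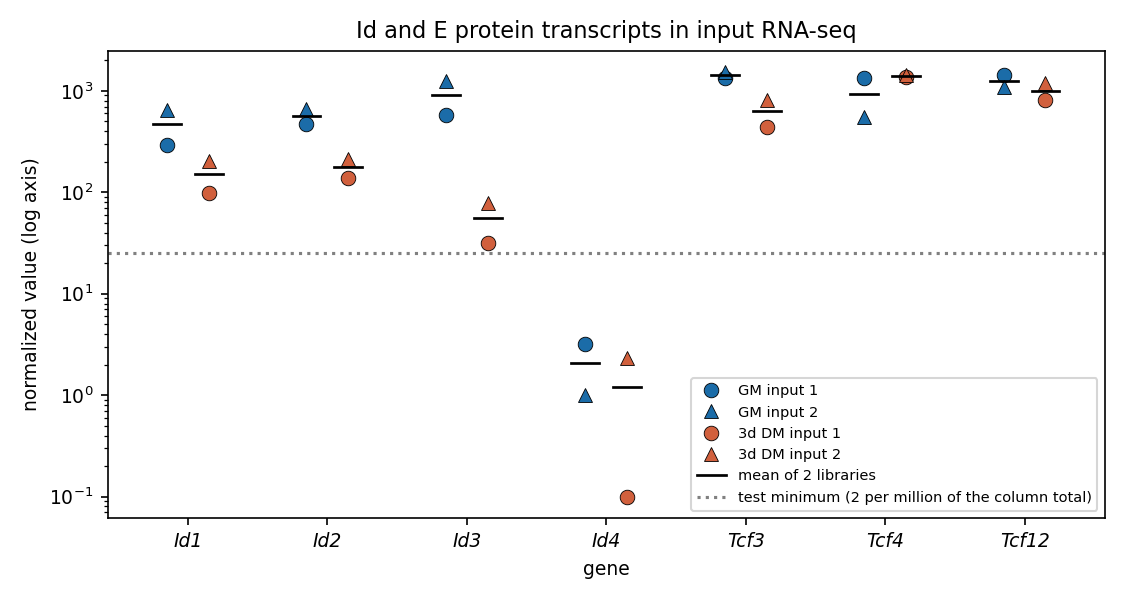
Normalized values of the 7 genes in the 4 input libraries on a log axis, with circles for replicate 1, triangles for replicate 2 and a bar for the mean of each pair. Id1, Id2, Id3 and Tcf3 are higher in both GM libraries than in both 3d DM libraries, Tcf12 overlaps between the states, Tcf4 has 1 low GM library, and Id4 lies below the line at 25.1 under which genes were not tested.

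Among the E proteins, Tcf3 fell, while neither Tcf12 nor Tcf4 passed the test. Tcf3, which encodes the E proteins E12 and E47 (Entrez 21423, chr10:80409514-80433647, minus strand), was at 1344.5 and 1534.4 in GM and at 441.3 and 819.0 in 3d DM. The GM libraries were close to each other and both were above both 3d DM libraries. The log2 fold change was -1.25 (SE 0.43, adjusted p = 0.0241). This call was lost without GM replicate 1 (adjusted p = 0.283), GM replicate 2 (0.495) and 3d DM replicate 1 (0.258), where the change was -0.81.

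Tcf12, which encodes the E protein HEB (Entrez 21406, chr9:71842688-72111871, minus strand), was at 1434.1 and 1081.8 in GM and at 816.1 and 1193.0 in 3d DM. The groups overlapped, and the change was -0.34 (SE 0.43, adjusted p = 0.704). Tcf4, which encodes E2-2 (Entrez 21413, chromosome 18, plus strand), was at 1329.2 and 547.0 in GM and at 1369.9 and 1440.4 in 3d DM. GM replicate 2 stood alone at less than the other libraries, and the 3 others lay between 1329.2 and 1440.4. The log2 fold change was 0.72 (SE 0.43, adjusted p = 0.287), and without GM replicate 2 it was 0.08.

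Levels of different genes were compared after division by the length of all exons of the gene. Per kb, the order in GM was Id3 (mean 512.3 ± 272.4, SD, n = 2), Id1 (402.2 ± 213.0), Tcf3 (356.4 ± 33.2), Id2 (231.3 ± 54.1), Tcf12 (81.0 ± 16.0), Tcf4 (34.3 ± 20.2) and Id4 (0.545 ± 0.400). Id3, Id1 and Tcf3 lay within 1 SD of each other. In 3d DM the order was Tcf3 (156.0 ± 66.1), Id1 (131.2 ± 64.2), Id2 (72.5 ± 22.1), Tcf12 (64.7 ± 17.2), Tcf4 (51.3 ± 1.82), Id3 (31.0 ± 18.7) and Id4 (0.316 ± 0.406). By its mean Id3 moved from the top of this order to below all 3 E proteins, though its distance from Tcf4 and Tcf12 was within 2 of its SDs. In 3d DM Tcf3 and Id1, like Id2 and Tcf12, did not differ beyond their spread. Tcf4 has many alternative first exons, and its exons together span 27382 bases against 8577 in its longest coding transcript. Per kb of the longest coding transcript, chosen after seeing the data, the levels of Tcf4 and Tcf12 were higher, and the 3d DM order was Tcf3 (213.6 ± 90.5), Tcf4 (163.8 ± 5.81), Tcf12 (159.5 ± 42.3), Id1 (131.2 ± 64.2), Id2 (89.8 ± 27.3) and Id3 (43.4 ± 26.2). The place of Id1 and Id2 relative to Tcf4 and Tcf12 therefore depended on the length used.

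The summed Id level per kb exceeded that of the E proteins in both GM libraries and was below it in both 3d DM libraries. The ratio of summed Id1 to Id4 over summed Tcf3, Tcf4 and Tcf12 was 1.62 and 3.25 in GM against 0.757 and 0.932 in 3d DM. Its log2 had a mean of 1.20 ± 0.71 (SD, n = 2) over the GM libraries and of -0.25 ± 0.21 over the 3d DM libraries, which differ by -1.45 (two-sided exact permutation test, p = 0.33, the smallest that 2 against 2 can give). The ratio is taken within a library and does not depend on how the columns were scaled, but its position relative to 1 did depend on length. With the length of the longest coding transcript, an alternative chosen after seeing the data, GM had ratios of 1.12 and 2.48 against 0.413 and 0.548 for 3d DM, and without division by length they were 0.326 and 0.810 against 0.103 and 0.145. All 3 versions put both GM libraries above both 3d DM libraries. They concern RNA, and protein was not measured.

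**Figure D2:**
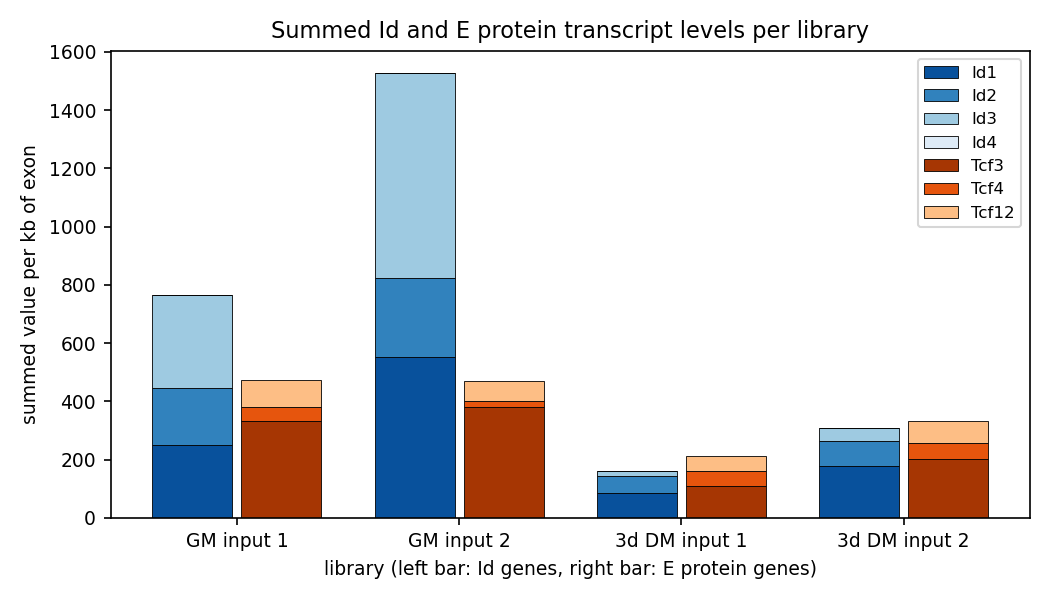
Summed value per kb of exon in each input library, with the Id genes stacked in the left bar and the E protein genes in the right bar. The Id bar is the taller in both GM libraries, at ratios of 1.62 and 3.25, and the shorter in both 3d DM libraries, at 0.757 and 0.932.

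Over the 4 libraries, the genes closest in pattern to Id3 among 9065 tested genes with a mean value of at least 100 were Plaur, the urokinase receptor, Mybl2, a transcription factor of dividing cells, and Cdc6, a DNA replication licensing factor. Their Euclidean distances on centred log2 values were 0.29, 0.46 and 0.54. Plaur was at 521.0 and 1153.0 in GM and at 32.6 and 61.0 in 3d DM, nearly the values of Id3. The closest genes to Tcf3 were Gm6793 (distance 0.04), Sema3a, a secreted guidance cue (0.06), and an entry with no matched symbol, Entrez 100503154 (0.07). Sema3a was at 738.9 and 830.9 in GM and at 249.1 and 436.3 in 3d DM. With 4 libraries such likeness is a description only.

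The partners of the E proteins moved in both directions, and their muscle targets rose. Among 71 other genes of the pathway 51 were tested, of which 7 were lower in 3d DM and 22 higher, beside 9.96% and 7.01% of all tested genes. Of the 22 higher genes 14 were the E-box targets. The number called, 29 in all, was 6 without 3d DM replicate 1, 11 without 3d DM replicate 2, 19 without GM replicate 2 and 25 without GM replicate 1.

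Among the myogenic bHLH factors, the direct partners of E proteins, 1 fell, 1 rose and 1 did not pass the test. Myf5 fell by 2.14 on the log2 scale (SE 0.48, adjusted p = 0.000118), and Myog rose by 4.06 (SE 0.42, adjusted p = 2.6e-20). Myod1 was at 1712.7 and 1129.0 in GM and at 1016.2 and 1645.4 in 3d DM. Its change was -0.10 (adjusted p = 0.921), and 0.09 after median-of-ratios rescaling. Myf6 was below the filter. Without 3d DM replicate 1 the adjusted p was 0.104 for Myf5 and 0.0662 for Myog, and for Myog it was 0.0836 without 3d DM replicate 2.

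Of 16 other bHLH repressors and partners 9 were tested, with 3 lower and 4 higher in 3d DM. Twist2, a bHLH repressor of mesenchymal cells, fell by 2.46 (adjusted p = 2.52e-05), and Msc, the repressor known as MyoR, fell by 2.30 (adjusted p = 0.00224). Bhlhe40 rose by 2.01 (adjusted p = 5.86e-05). Heyl, a Notch target, was at 230.0 and 16.1 in GM and at 182.2 and 275.4 in 3d DM, so its call (1.84, adjusted p = 0.00258) rested on the single GM replicate 2, without which the change was -0.04. Without 3d DM replicate 1 the adjusted p was 0.107 for Twist2, 0.145 for Msc and 0.0524 for Bhlhe40. It was 0.0746 for Msc and 0.0593 for Bhlhe40 without 3d DM replicate 2, and 0.0979 for Bhlhe40 without GM replicate 2. Of the 4 tested zinc finger repressors that bind E-boxes, Snai2 fell by 1.23 (adjusted p = 0.0459) and Zeb1 rose by 1.21 (adjusted p = 0.0327), and both calls were lost with any library left out (adjusted p from 0.137 to 0.708 for Snai2, whose change was -0.79 without GM replicate 1, and from 0.13 to 0.686 for Zeb1).

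None of the 5 tested BMP ligands and receptors was called at an adjusted p under 0.05. Bmp4, a ligand, was at 63.2 and 35.1 in GM and at 104.7 and 118.1 in 3d DM (log2 fold change 1.22, adjusted p = 0.108), and the receptors Bmpr2 and Acvr2a had log2 fold changes of 0.77 and 0.74 (adjusted p = 0.29 and 0.338). After median-of-ratios rescaling these 3 genes were called higher, at adjusted p-values of 0.0313, 0.0228 and 0.0261, and likewise after trimmed-mean rescaling. Of the 11 tested Smads and BMP inhibitors 2 rose and 0 fell. Both were secreted antagonists, Fst, which encodes follistatin (5.16, SE 0.46, adjusted p = 5.28e-27), and Chrd, which encodes chordin (3.63, SE 0.52, adjusted p = 1.38e-10). The median of these 11 genes was -0.22, beside -0.224 over all genes. Grem1, a further antagonist, had a log2 fold change of -1.10 (adjusted p = 0.0682). Without 3d DM replicate 1 or 2 the adjusted p of Chrd was 0.174 or 0.194, and without GM replicate 2 its change was 2.07. In contrast, Fst was called with any library left out.

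Of the 5 genes of Id protein turnover 2 fell and 3 were not called. Usp1, which encodes a deubiquitinase known to stabilise Id proteins, fell by 1.94 (SE 0.44, adjusted p = 0.000121), and Cdc20, an activator of the anaphase-promoting complex, fell by 2.90 (SE 0.44, adjusted p = 2.7e-09). Usp1 was at an adjusted p of 0.142 without GM replicate 2, and without 3d DM replicate 1 Usp1 was at 0.0831 and Cdc20 at 0.0501. All 14 E-box targets of muscle rose, with a median of 4.85, led by Myh3, the embryonic myosin heavy chain (6.26, adjusted p = 5.63e-50), and Tnni1, slow troponin I (6.09, adjusted p = 4.46e-45). The number called was 11 without GM replicate 2, 5 without 3d DM replicate 1 and 6 without 3d DM replicate 2. Chrnd, an acetylcholine receptor subunit, was at 1982.5 and 288.1 in GM against 2593.0 and 2628.1 in 3d DM, and its change of 1.79 was 0.40 without GM replicate 2 and was not called after median-of-ratios rescaling (adjusted p = 0.119). Chrna1, a further subunit, had a change of 1.34 that was 0.70 without GM replicate 2. In GM replicate 1, the GM library with the lower Id1, Id2 and Id3, the summed value of these 14 targets was 33455.7 against 13120.6 in GM replicate 2. In 3d DM, replicate 1 also had the lower Id1, Id2 and Id3, but there the summed value of the targets was the lower too. It was 186490.4 against 235580.8 in 3d DM replicate 2. The part of these differences in the results for the Id genes was not tested.

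**Figure D3:**
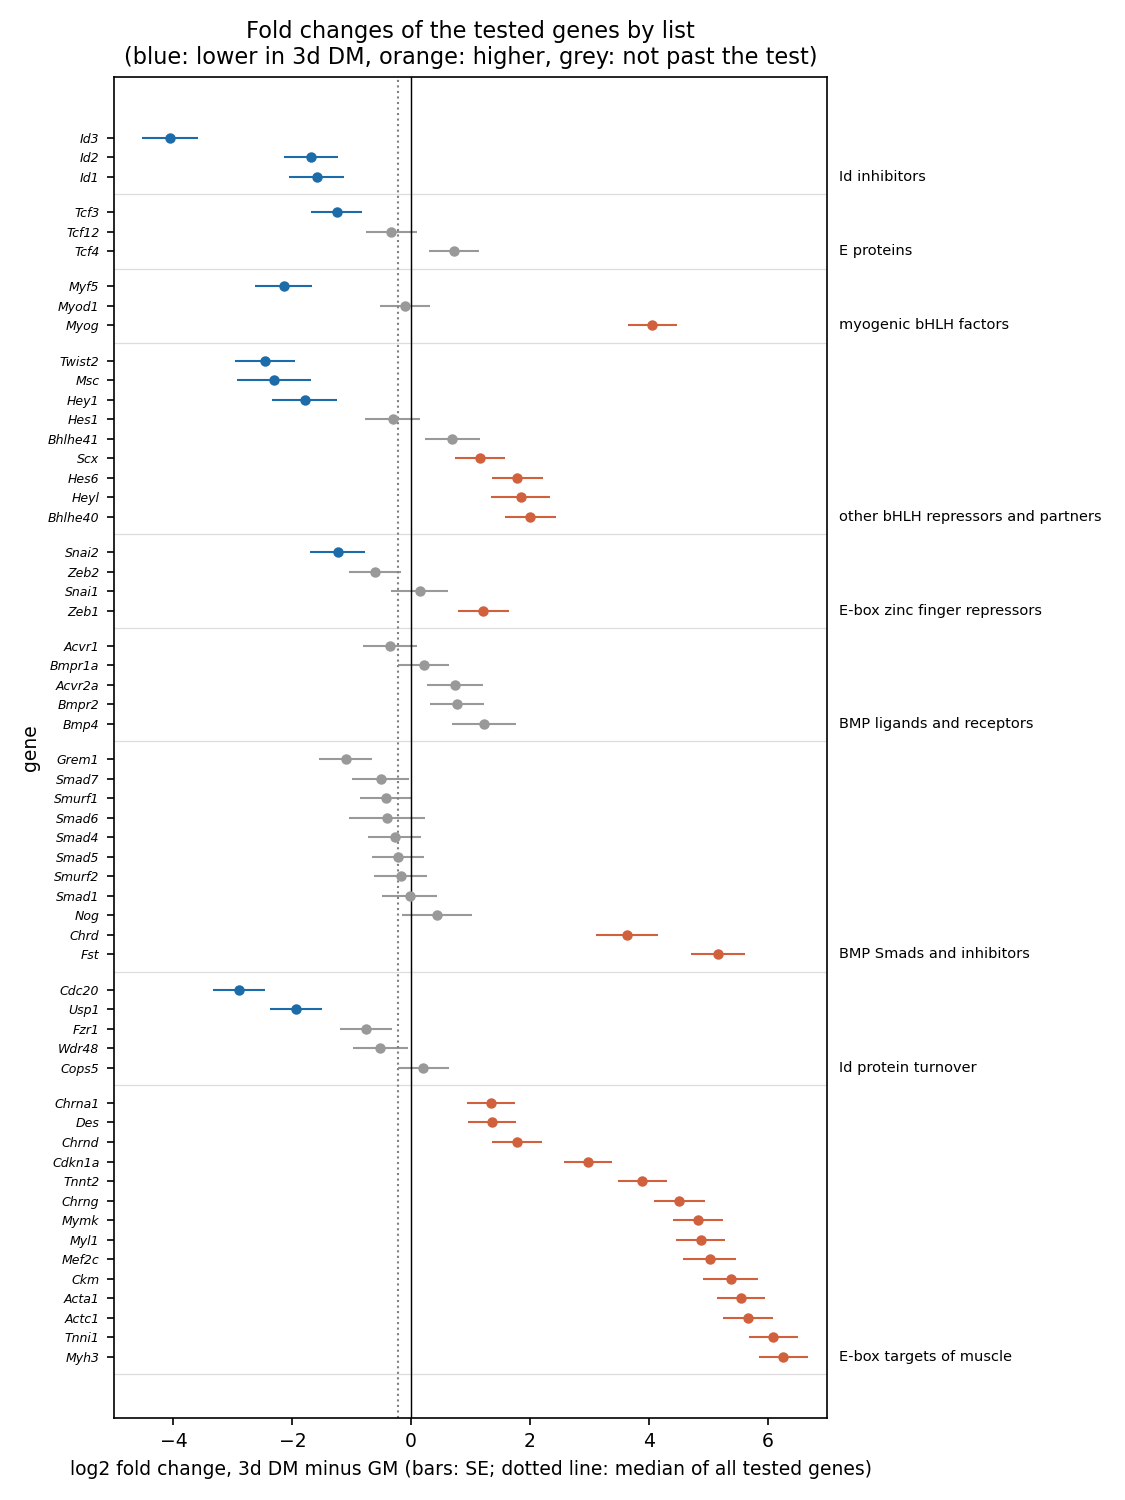
Log2 fold changes of 3d DM minus GM with their SE for the 6 tested members and 51 other tested genes by list, blue where lower in 3d DM, orange where higher and grey where the test was not passed, with a dotted line at the median of all genes (-0.224). The Id genes lie to the left, with Id3 at -4.05, the E proteins spread around the median of all genes, and the 14 E-box targets lie to the right, up to 6.26 for Myh3.

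In the m6A peak lists the Id genes and the E proteins parted. Peaks were called by the authors in each IP library against its own input, and a fold is IP over input. Id1, Id2 and Id3 had peaks in both GM lists and in neither 3d DM list, Tcf3 and Tcf4 had peaks in all 4, Tcf12 in 3, and Id4 in none. The number of members with a peak was thus 6 and 6 in GM against 3 and 2 in 3d DM (difference -3.5, two-sided exact permutation test, p = 0.33, the smallest possible). With only lines of p at most 1e-05 in the authors' peak calls, Id2 and Tcf12 had no peak in GM replicate 2. The numbers were then 6 and 4 in GM against 3 and 2 in 3d DM. The share of all tested genes with a peak was 63.8% and 60.4% in the GM lists and 62.8% and 53.5% in the 3d DM lists.

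Absence from a list is not absence of m6A, and the lists give no read numbers. Among tested genes with a peak in both GM lists, 4.88% had none in either 3d DM list. This share was 18.3% among those with lower RNA in 3d DM, and 29.1% among those whose 3d DM mean was also no higher than that of Id2. So the loss at the 3 Id genes has to be read against their low 3d DM values, and whether the mark or the RNA was lost cannot be told apart. Peaks in all 4 lists, as at Tcf3 and Tcf4, were found for 42.6% of tested genes.

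By fold, Id1 had the strongest of the Id peaks, with highest folds of 3.77 in GM replicate 1 and 3.34 in GM replicate 2, at different places. The fold of 3.77 was over the coding start, where peaks of GM replicate 2 had folds of 2.46 and 3.28. The fold of 3.34 was in the 3′UTR, where peaks of GM replicate 1 had folds of 1.67 and 1.73. In both lists a peak covered the start of the coding sequence, in exon 1 of 2, and peaks also lay in the 3′UTR, in a region of chr2:152736309-152737381. The 232 coding bases shared by both GM lists are shown because they mark where the peaks agreed. They run from the start codon (chr2:152736341-152736572, plus strand, mm10), and the capitals mark the only match to GGAC followed by A, C or T, common forms of the m6A motif, searched on the RNA strand alone.

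Id1 coding stretch: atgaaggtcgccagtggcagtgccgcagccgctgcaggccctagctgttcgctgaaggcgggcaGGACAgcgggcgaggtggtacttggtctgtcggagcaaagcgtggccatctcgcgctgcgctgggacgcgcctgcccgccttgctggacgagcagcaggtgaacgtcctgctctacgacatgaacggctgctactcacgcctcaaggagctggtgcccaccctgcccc

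The peaks of Id2 were weak, with folds of 2.26 and 1.76 in GM replicates 1 and 2 in the 3′UTR (chr12:25094214-25094485, exon 3 of 3). A coding peak with a fold of 1.77 was listed in GM replicate 1 alone. Id3 had 1 peak in each GM list, with folds of 2.32 and 2.78, also in the 3′UTR (chr4:136144887-136145392, exon 3 of 3). The bases covered in both GM lists held 1 motif in Id2 and 2 in Id3, each shown in a window of 25 bases to give the sequence the peaks share, with capitals as before. The Id2 motif lay 128 bases after the first base of the stop codon (window chr12:25094444-25094468, minus strand), and those of Id3 lay 165 and 185 bases after it (windows chr4:136145009-136145033 and chr4:136145029-136145053, plus strand).

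Id2 window: cacgttgaatGGACCtttttaaaaa
Id3 window at 165: cctcgaggctGGACCtggagcccga
Id3 window at 185: cccgagagaaGGACTgaacttgggt

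All 3 Id genes thus had 3′UTR peaks in both GM lists, and Id1 also had peaks over the coding start in both. Motifs were common in their short transcripts, at 7 in the 934 bases of Id1, 10 in the 1270 bases of Id2 and 10 in Id3. In each list the peak with the smallest p of each gene was searched. Across all genes, 60.5% to 63.8% of these peaks held a motif in their central 200 bases. Among the members it was 3 of 6 and 5 of 6 in GM, and 1 of 3 and 1 of 2 in 3d DM. A motif match is a description and does not place an m6A.

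**Figure D4:**
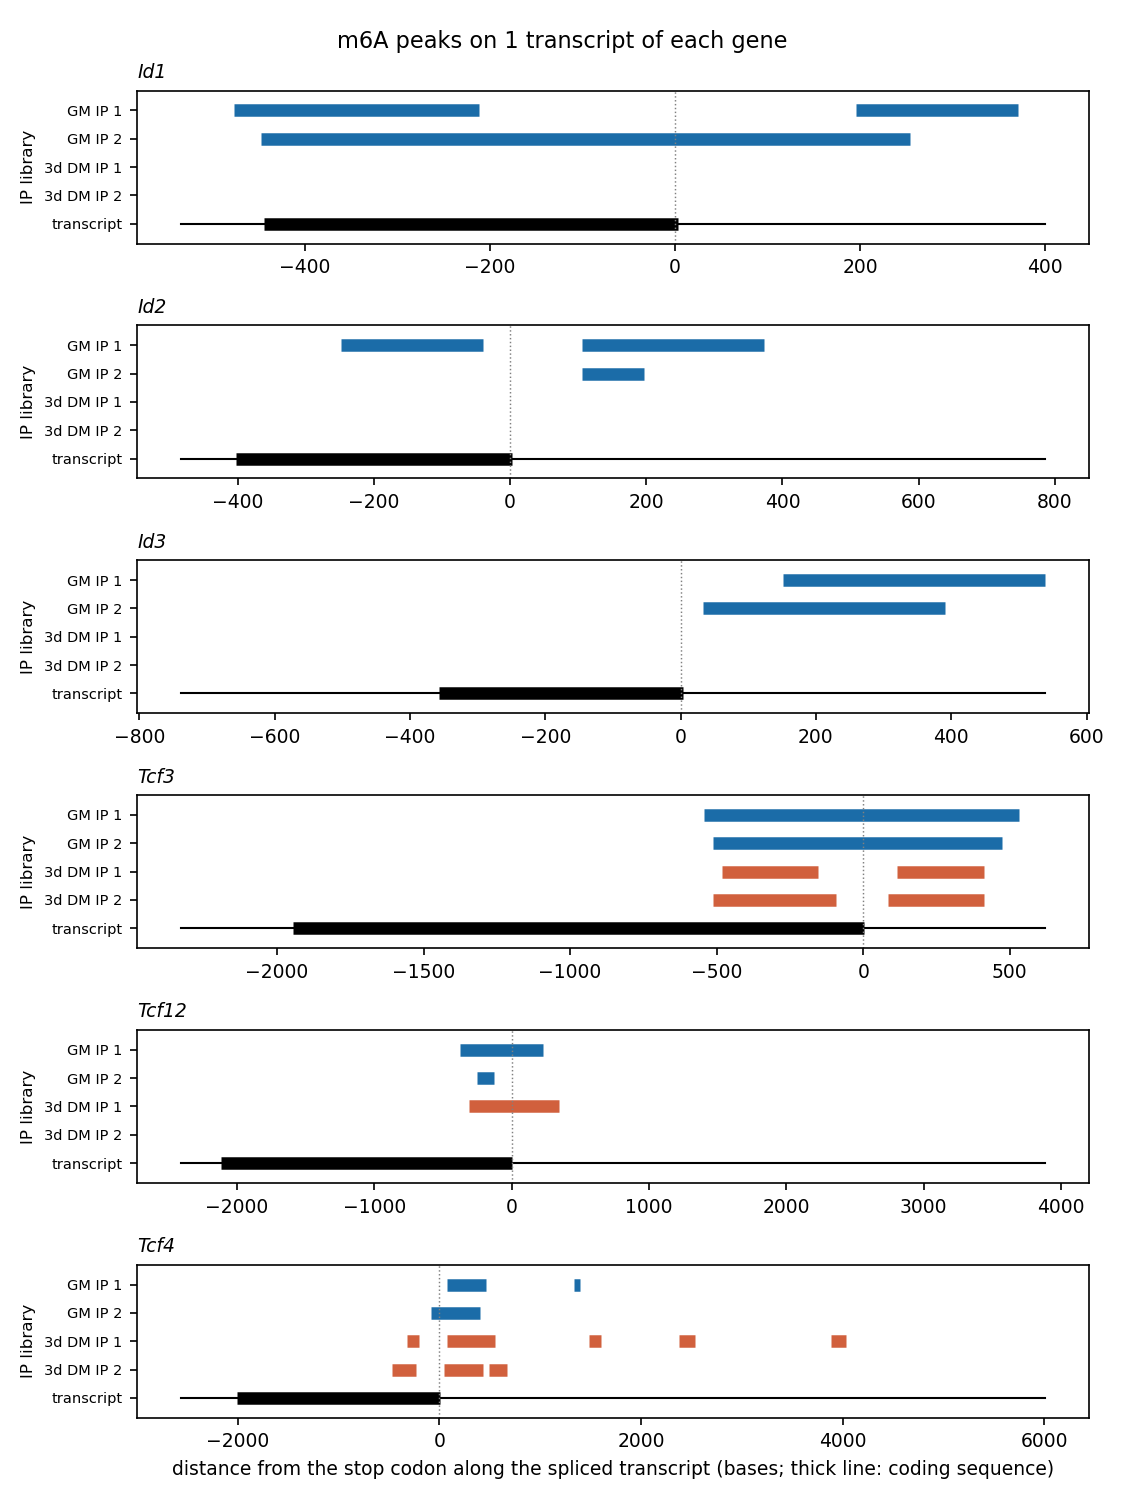
Peaks of the 4 IP libraries on 1 transcript of each gene, blue for GM and orange for 3d DM, by distance in bases from the first base of the stop codon, above the transcript with its coding sequence as a thick line. Id1, Id2 and Id3 have GM peaks only, and at Tcf3 both GM peaks run across the stop codon where both 3d DM lists have a gap.

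At Tcf3 the peak was in all 4 lists but its shape differed. The peak lay in the last coding exons and the 3′UTR (chr10:80409603-80415203), with highest folds of 4.09 and 3.96 in GM against 3.50 and 5.68 in 3d DM. These GM folds were of peaks over coding sequence and 3′UTR together, and these 3d DM folds of coding peaks alone. By the highest folds the 3d DM libraries lay on either side of GM, the log2 difference was 0.148, and the exact permutation p was 1.0. In both GM lists each of the 11 transcripts with a peak had a single peak that covered the stop codon. In both 3d DM lists the stop codon lay in no peak in any of the same 11 transcripts, and 9 of them had at least 2 separate peaks. These transcripts share their exons and are not independent. On the transcript drawn (2950 bases, 19 exons), counting from the first base of the stop codon, the GM peaks ran from -542 to 532 and from -512 to 472. The 3d DM peaks ended at -153 and -94 and began again at 114 and 84. On this transcript the GM peaks had folds of 4.04 and 3.96. In 3d DM the 3′UTR peaks had 2.42 and 3.18, below both, and the coding peaks had 2.23 and 4.18. Over all genes with a transcript listed 4 times and the stop codon in a peak in both GM lists, 7.81% (157 of 2009) had it in neither 3d DM list, and the opposite was seen at 39 of 1573. These shares are over all such genes, whereas Tcf3 RNA was lower in 3d DM, at a log2 fold change of -1.25. The part of the lower RNA in the gap was not tested. The pattern at Tcf3 was noticed in these data and was not tested.

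The coding bases of Tcf3 that both GM lists covered and neither 3d DM list did are shown because they hold this difference. They are the last 97, stop codon included, in exon 19 of 19 (chr10:80410132-80410228, minus strand, printed 5′ to 3′ on the RNA strand), with a motif in capitals at -70. In the 3′UTR part of the gap 2 motifs lay 23 and 30 bases after the start of the stop codon (window chr10:80410097-80410121). A window 118 bases after it, in peaks of all 4 lists, is given beside them (chr10:80410002-80410026).

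Tcf3 coding stretch: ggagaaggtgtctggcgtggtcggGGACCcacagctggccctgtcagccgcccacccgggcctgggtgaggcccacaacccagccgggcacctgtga
Tcf3 window at 23: cttcttcgttGGACCagGGACCacc
Tcf3 window at 118: agggctctggGGACActtcagggcc

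So the gap in 3d DM was not a stretch without motifs. Tcf3 had 20 motifs in this transcript, 12 of them within the GM peaks. The 3d DM peaks before and after the gap held 5 and 3 of them in replicate 1 and 6 and 3 in replicate 2.

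At Tcf4 the peak at the start of the 3′UTR was in all 4 lists, and its highest folds were higher in both 3d DM libraries. Only in the replicate 2 lists did it reach back over the stop codon, at 23 of 23 transcripts in GM and 9 of 23 in 3d DM. In the replicate 1 lists the stop codon lay in a peak at 0 of 13 transcripts in GM and 0 of 23 in 3d DM. The highest folds of the peak were 4.05 and 2.96 in GM against 7.21 and 5.45 in 3d DM. Both 3d DM libraries were above both GM libraries, by 0.856 on the log2 scale (two-sided exact permutation test, p = 0.33, the smallest possible). Of the 6055 peaks in all 4 lists 9.13% were likewise higher in both 3d DM libraries, the median difference was -0.106, and 3.6% had a difference at or above that of Tcf4. Of the 13 transcripts listed 4 times, which share most of this sequence, 11 showed this order and 1 the opposite. GM replicate 2, which had the lowest fold, also had the lowest Tcf4 RNA, at 547.0, and the part of this in the difference was not tested.

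Tcf4 had other peaks that were not in all lists. A coding peak upstream was in both 3d DM lists, with folds of 1.91 and 3.13, and in no GM list. The share of all peaks with this pattern was not counted, so whether it is uncommon is not known. The part of the low Tcf4 RNA in GM replicate 2 was not tested here either. A 5′UTR peak with a fold of 8.11, the highest of any member, and 2 peaks far down the 3′UTR with folds of 2.48 and 2.12 were in 3d DM replicate 1 alone. A 3′UTR peak between them and the shared peak had a fold of 5.25 in GM replicate 1 and 2.12 in 3d DM replicate 1. Tcf4 had 16 and 23 lines in the GM lists and 47 and 42 in the 3d DM lists, where a line is 1 peak on 1 transcript.

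Tcf12 had peaks at the end of the coding sequence and the start of the 3′UTR (chr9:71846205-71858509). The highest folds, 3.16 and 1.89 in GM and 2.47 in 3d DM replicate 1, were of peaks listed in coding sequence alone. Those of 3.16 and 2.47 were on transcripts annotated without a stop codon, on which no 3′UTR part could be listed. On the other transcripts, peaks in coding sequence alone had at most 3.06 in GM replicate 1, and 3d DM replicate 1 listed none. The folds in coding sequence and 3′UTR are thus not comparable in 3d DM. Peaks reaching the 3′UTR had at most 3.05 in GM replicate 1 and 2.16 in 3d DM replicate 1, and GM replicate 2 listed none. The stop codon lay in a peak in 5 of 5 transcripts in both replicate 1 lists, and in 0 of 5 in GM replicate 2. No Tcf12 peak was listed in 3d DM replicate 2, the shortest list at 23785 lines. Tcf12 RNA there, at 1193.0, was above that of GM replicate 2. The 3d DM lists thus differed from each other at Tcf12, and a difference between the states was not tested.

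**Figure D5:**
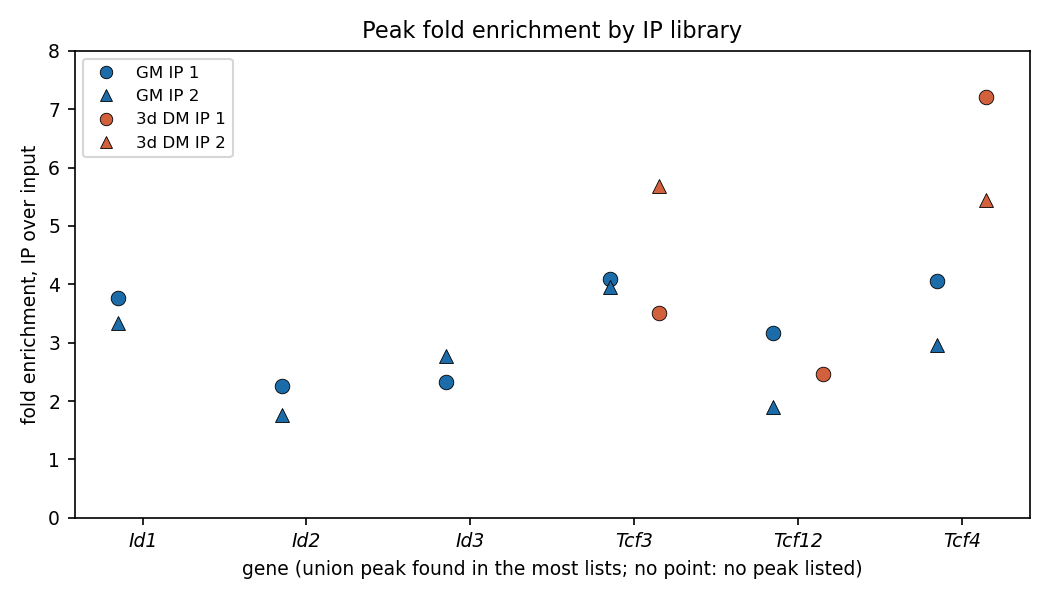
Highest fold enrichment of IP over input in each list, over the joined peaks of each gene found in the most lists. Circles are for replicate 1 and triangles for replicate 2, with no point where a list had no peak. At Id1 the GM folds lay at different places, and at Tcf3 the 3d DM folds were of coding peaks alone. Id1, Id2 and Id3 have GM points only, the 3d DM points of Tcf3 lie on either side of GM, and those of Tcf4 (7.21 and 5.45) are above GM (4.05 and 2.96).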

How the data were processed

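Input and MeRIP-seq libraries of C2C12 myoblasts in GM and 3d DM, 2 of each kind, were grouped by their labels. Adaptor-trimmed reads were aligned by the authors to mm10 (HISAT2 2.1.0), and exomePeak was run on every IP library with its input at a threshold of 0.05 on p. For each transcript with a peak the deposited lists hold a p-value and a fold, the ratio of IP over input. Input RNA was deposited as a table of normalized signal, labelled TMM, from the authors' work with edgeR. How reads were counted is not given in the sources used here. The table holds no read counts, so the depth is unknown and no counting error is given. Every column sums to nearly the same total, so a column with a larger top entry has less left for its other genes. The share held by the largest entry was highest for 3d DM replicate 1, at 41.3%. It was 33.2% for GM replicate 2, 25.6% for 3d DM replicate 2 and 24.4% for GM replicate 1. The log2 median-of-ratios factors of these 4 libraries, in this order, were -0.309, -0.008, 0.112 and 0.205. The part of these shares in the differences between replicates was not tested.

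The log2 of value + 1 was tested in limma (3.58.1, under R 4.3.3), letting the variance follow the level. A gene entered the test if 2 of 4 libraries or more were at 25.1 or above, which is 2 cpm when the column total is taken as the depth. The study's filter of 3 libraries was an alternative, with others on pseudocounts (0.1, 4), rescaling, pairing, peak thresholds (p at most 1e-05, fold at least 4) and left-out libraries. Symbols came from RefSeq (98.7% of tested genes), and exons and transcript sequences from GENCODE M21 on mm10, the build of the files. Lines on the same strand sharing at least 1 exonic base were joined, with the highest fold per library. Peaks were placed on 1 transcript per gene with a complete coding sequence (first those of the best annotation support, then those in the most lists, then the longest).

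The members and the gene lists were chosen with earlier results of these data known. Named are all members, the 2 largest called changes per direction in lists of more than 5 tested genes, and the 3 genes nearest in pattern to Id3 and Tcf3. Calculations used Python 3.11.15 with numpy 2.4.6 and pandas 2.3.3, and plots matplotlib 3.10.9.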

Additional observations from a re-analysis of the deposited data

How the results depend on the processing

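Of the 6 tested members, 4 were called under the stricter filter, under either other pseudocount and without the intensity trend, and 3 under median-of-ratios or trimmed-mean rescaling, where Id1 was lost. With no filter on low values 0 members and 1 of 75 other genes, those of the pathway with 4 genes of dividing cells, were called, and 154 of 27179 genes in all. The p-values before adjustment also rose, from 1.1e-17 to 0.014 for Id3. With libraries left out, where a lone library is assumed to vary like the others, 0 to 2 members and 9 to 29 of the 55 of these tested were called, against 33 with all libraries, and 145 to 1252 of 11406 genes, against 1936. The difference of the Id to E protein ratio was -2.07 without division by length, and between -1.95 and -0.94 with a library left out. The difference in members with a peak was -2.5 for lines with p at most 1e-05 and 0.5 for folds of at least 4, and between -4 and -3 with a library left out. The difference of Tcf3 folds was -0.35 with the median instead of the highest fold, and between -0.20 and 0.50 with a library left out, and that of Tcf4 between 0.63 and 1.08. Myod1 was at 0.09 under both rescalings and between -0.45 and 0.24 with a library left out, and Heyl between -0.04 and 3.72. The cause of these shifts was not tested.

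Replicate numbers were shared between the states with no label of a common batch, so the numbers were not taken to pair the samples. The deviations of same-numbered libraries correlated at 0.29 over the tested genes. With 2 pairs this cannot decide whether same-numbered libraries belonged together. With the replicate block 3 members (Tcf3 was lost, adjusted p = 0.158) and 29 pathway genes (the target Chrna1 was not, adjusted p = 0.0672) were called, and 1298 genes in all. The paired differences equalled the unpaired ones for the ratio (-1.45), for members with a peak (-3.5), and for the folds of Tcf3 (0.15) and Tcf4 (0.86).

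Having 2 libraries a state, an unknown depth and p-values that follow a common trend limit every call.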
